A study of Mus musculus with 10 samples.

Results

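Perp is a small membrane protein with 4 membrane spans that sits in desmosomes, the spot junctions of epithelia, and its gene is switched on by the transcription factor p53. The genes described here are Perp and 9 further genes of the p53 pathway, Trp53, Cdkn1a, Mdm2, Ccng1, Bbc3, Bax, Sesn1, Sesn2 and Gadd45a. Perp was picked because of its difference between the groups in these data, so its difference is given as a description with no test. The others were picked by name as p53 itself and its textbook targets, with earlier results of these data known. The question was whether they moved with Perp. A gene was measured if a probe set (the group of probes that reports on 1 transcript) carried its symbol alone, which held for 7 of the 10, or 7 of the 22180 genes measured. The probe set for Gadd45a is shared with another gene, and Gadd45a, Trp53 and Bax were not analysed here.

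RNA from the calf muscle gastrocnemius was hybridised to Affymetrix Mouse Gene 2.0 ST arrays, 1 array per mouse, for 5 control and 5 carnitine mice. All were male NMRI mice, an outbred stock without an engineered allele. Control mice ate a natural-ingredient diet low in carnitine (below 5 mg per kg), and carnitine mice ate that diet with 1000 mg of L-carnitine added per kg, both from 1 week after arrival at 3 weeks of age. Mice of the study were killed at 9, 15 or 18 months. The labels do not give the age or the cage of the array mice, so neither could be compared between the groups. The study asked how lifelong carnitine feeding affects the muscle transcriptome at advanced age.

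The p53 protein is held low in unstressed cells by Mdm2, an E3 ubiquitin ligase that p53 itself induces, which makes a feedback loop. When DNA damage or other stress stabilises p53, it binds pairs of a decamer in DNA and raises genes that stop the cell cycle, start apoptosis, repair DNA or adjust metabolism. In muscle, Cdkn1a, which encodes the cell-cycle inhibitor p21, also takes part when myoblasts leave the cell cycle to form fibres, and Sesn1 and Sesn2 encode sestrins, stress-induced inhibitors of mTORC1 signalling.

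Promoter windows from RefSeq (build GRCm38.p6, 250 bases before to 50 bases after a gene start) were searched on both strands for the consensus p53 decamer, and the matches are shown because p53 is known to bind DNA of this pattern. Windows were held for 6 of the 7 measured genes, 10 windows in all. Perp was the gene without a window, so its promoter was not searched. The decamer stood in 4 of the 10, against 8.36% of all 32851 windows. The first line shows the upstream start of Cdkn1a, where a matching decamer is followed at once by another with the same core, so that the window holds CATGNNNNNNCATG, a pattern found in 0.712% of all windows. Capitals mark the decamer pair in Cdkn1a and the single decamer in the other lines.
Cdkn1a, chr17:29090923-29090952, plus strand: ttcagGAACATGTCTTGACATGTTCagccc
Mdm2, chr10:117710925-117710954, minus strand: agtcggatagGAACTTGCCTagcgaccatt
Ccng1, chr11:40755452-40755481, minus strand: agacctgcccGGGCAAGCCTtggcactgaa
Sesn1, chr10:41887256-41887285, plus strand: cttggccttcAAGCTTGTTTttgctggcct
The upstream window of Cdkn1a held a further single decamer. The windows of Bbc3 and Sesn2, the downstream window of Cdkn1a and the other window of Sesn1 held no match, which says nothing of sites elsewhere in these genes. Matches are letters in a window and were not tested for binding.

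All values are log2 values after RMA, in which 1 unit is a doubling, and differences are carnitine minus control. Array medians ran from 5.72 to 5.96. Control replicate 5 had the narrowest spread of values (interquartile range 2.20), and the other arrays had ranges from 2.39 to 2.59. The markers of muscle fibres Acta1, Ckm, Myh4, Des, Tnnt3 and Mb had means from 12.42 to 13.82, near the top of the scale, so the defining markers of the labelled tissue were present. In limma 0 of 22180 genes passed an adjusted p of 0.05 (0%), and 6.97% had an unadjusted p below 0.05.

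Perp was higher on average in carnitine muscle, and the control mice spread widely. The 5 control mice had values of 6.33, 6.25, 7.85, 6.56 and 7.36 (replicates 1 to 5), and the 5 carnitine mice had 7.81, 8.50, 7.82, 7.51 and 8.28. Control replicates 1, 2, 4 and 5 lay below every carnitine mouse. The groups overlapped through control replicate 3 alone, which lay above 3 of the carnitine mice, so 2 carnitine mice exceeded all controls. Control mice averaged 6.87 ± 0.70 and carnitine mice 7.98 ± 0.40 (mean ± SD of 5 mice each). The difference was 1.11, or 2.16-fold, against a within-diet SD of 0.57. This difference, for which Perp was chosen, ranked 2 among 22180 genes, and its rank ran down to 8 when arrays were left out (without control replicate 2). Perp was also among the more variable genes: 0.505% of genes had a standard error as large as its 0.28. When each array was left out in turn, the difference ran from 0.96 without control replicate 2 to 1.36 without control replicate 3.

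**Figure D1:**
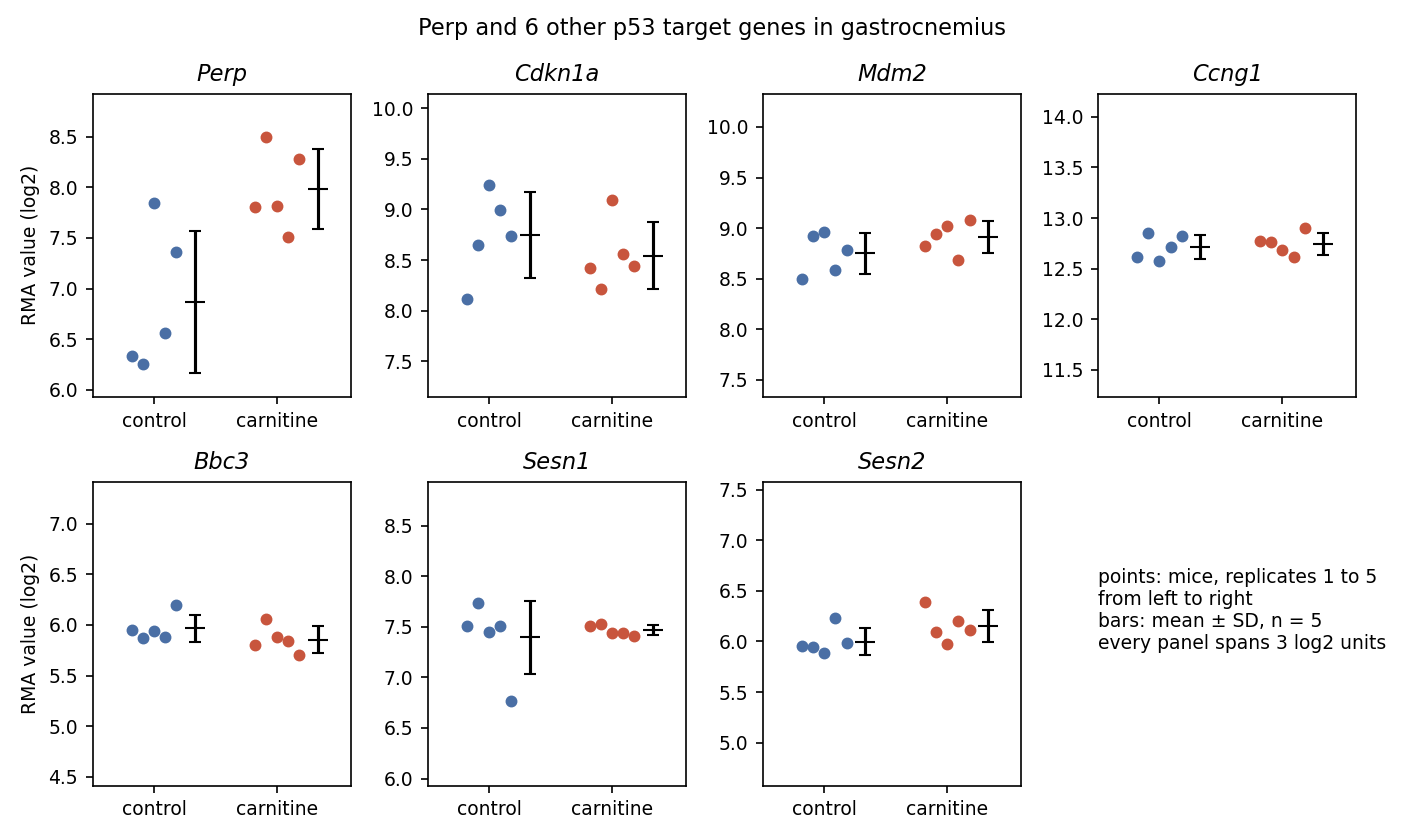
RMA log2 values (vertical axes, 3 log2 units in every panel) of Perp and 6 other p53 targets in 5 control and 5 carnitine mice, with points for mice and bars for the mean ± SD. In Perp 4 control mice lie below every carnitine mouse, and the diets overlap in every panel.

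None of the 6 other measured genes passed the test between the diets. Of the 6, 4 had a positive and 2 a negative difference, from -0.20 in Cdkn1a to 0.16 in Mdm2, with a median of 0.05 against -0.01 over all genes. That median was 0.00 without control replicate 5 and 0.10 without control replicate 2. Among all genes at or above the median level 67.5% had a positive difference, with a median of 0.058. The 4 members at that level had a median of 0.051, and 3 of them were positive. In limma 0 of the 6 passed an adjusted p of 0.05 and 0 had an unadjusted p below 0.05, the smallest being 0.149. Over all genes 3.14% had an unadjusted p below 0.05 with a higher and 3.83% with a lower level in carnitine, so a count of 0 in 6 genes is near that background. In none of the 6 did the groups fail to overlap, against 0.505% of all genes with all carnitine mice above all controls and 0.609% with all below. The upper ends of their 95% confidence intervals reached at most 0.39, or 1.31-fold. The positive share over all genes was 47.5%, and it was 62% after median centring, where 4 of the 6 were positive. After cyclic loess 3 of the 6 were positive and their median was -0.02, and with array weights 3 were positive and the median was 0.00.

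Among the genes of cell-cycle arrest, Cdkn1a had control values of 8.11, 8.65, 9.24, 8.99 and 8.74 and carnitine values of 8.42, 8.21, 9.09, 8.56 and 8.44. Its mean was lower in carnitine (8.54 ± 0.33 against 8.75 ± 0.42, mean ± SD of 5 mice each), opposite in sign to Perp. The difference of -0.20 (SE 0.19, 95% interval -0.61 to 0.21, limma adjusted p = 0.79) lay within the spread between mice. Without control replicate 1, the lowest of the controls, the difference was -0.36 with an unadjusted p of 0.0483 (limma adjusted p = 0.603, and 0.603 to 0.929 over all alternatives). In that fit 8.15% of all genes had an unadjusted p below 0.05. Without control replicate 3 the difference in Cdkn1a was -0.08. Ccng1, which encodes cyclin G1, a p53-induced cyclin that acts back on Mdm2, had a bright probe set with little spread. Its 10 values lay between 12.58 and 12.90, with a control range of 12.58 to 12.85 and a carnitine range of 12.62 to 12.90. The difference of 0.03 (95% interval -0.14 to 0.20, limma adjusted p = 0.92) turned to -0.05 after cyclic loess.

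Mdm2, the feedback inhibitor of p53, had control values of 8.50, 8.92, 8.96, 8.59 and 8.78 and carnitine values of 8.82, 8.94, 9.02, 8.69 and 9.08. The carnitine mice lay within or just above the control range, with 4 of 5 above the control median. Control averaged 8.75 ± 0.20 and carnitine 8.91 ± 0.16 (mean ± SD of 5 mice each), and these means differed by 0.16 (SE 0.11, 95% interval -0.07 to 0.39, limma adjusted p = 0.73).

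Bbc3 encodes PUMA, a BH3-only protein that triggers apoptosis at mitochondria. Its control values were 5.95, 5.87, 5.94, 5.88 and 6.20 and its carnitine values 5.80, 6.06, 5.88, 5.84 and 5.70. The groups overlapped, and control replicate 5 was the highest of all. The difference was -0.11 (SE 0.10, 95% interval -0.32 to 0.10, limma adjusted p = 0.77), and -0.05 without control replicate 5. The level of Bbc3 lay below the median gene level of 6.13. RMA can shrink differences of dim genes, and whether it did so here was not tested.

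The sestrin genes did not pass the test either. Sesn1 had control values of 7.51, 7.73, 7.45, 7.51 and 6.77 and carnitine values of 7.51, 7.53, 7.44, 7.44 and 7.41. The carnitine mice were tightly grouped (7.47 ± 0.05) and the controls were not (7.39 ± 0.36, mean ± SD of 5 mice each), with control replicate 5 as the low value. The difference was 0.07 (95% interval -0.23 to 0.38, limma adjusted p = 0.90) and turned to -0.08 without that array. Sesn2 had control values of 5.95, 5.94, 5.89, 6.23 and 5.98 and carnitine values of 6.39, 6.09, 5.97, 6.20 and 6.11. All 5 carnitine mice lay above the control median, but control replicate 4 lay above 4 of them. Its difference was 0.15 (SE 0.10, 95% interval -0.06 to 0.37, limma adjusted p = 0.73), at a level just below the median gene.

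A further 40 genes known as direct p53 targets were listed, of which 35 were measured. Of the 35, 19 were higher and 15 lower on average in carnitine, and Sfn (stratifin) had equal means. This was 54.3% positive against 47.5% of all genes, with a median difference of 0.03 against -0.01. The share depended on level: among all genes at or above the median level 67.5% were positive, with a median of 0.058. The 29 listed targets at that level had a median of 0.052. The mean of the 35 in each mouse ran from 7.21 to 7.35 in control and from 7.28 to 7.35 in carnitine. Control replicates 1, 3, 4 and 5 lay below every carnitine mouse, and the groups overlapped through control replicate 2 alone. This layout was not tested, and most of the 35 lay at the level where positive differences prevailed over all genes. After median centring 25 of the 35 were positive (62% of all genes) with a median of 0.08, and without control replicate 3 the median was 0.01. In limma 0 passed an adjusted p of 0.05. An unadjusted p below 0.05 was found in 3, all higher in carnitine, or 8.57% of the list against 6.97% of all genes, and this count was 6 without control replicate 3 (8.53% of all genes in that fit), 5 without carnitine replicate 4 (6.66%) and 5 without carnitine replicate 5 (5.83%). Some of these genes, Ephx1 and Thbs1 among them, were known from earlier results of these data when the list was written.

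Tigar, which encodes a phosphatase that lowers glycolytic flux, had control values of 8.87, 8.87, 8.92, 8.47 and 8.91 and carnitine values of 9.03, 9.19, 9.03, 9.30 and 9.28. It was the 1 gene of the list in which all carnitine mice lay above all controls, which held for 0.505% of all genes. The difference was 0.36 (SE 0.10, limma adjusted p = 0.71), and it was 0.27 to 0.39 when arrays were left out. Ephx1, the microsomal epoxide hydrolase, ranged from 7.15 to 7.62 (median 7.26) in control and from 7.40 to 8.08 (median 7.82) in carnitine, a difference of 0.45 (SE 0.13). Thbs1, which encodes the matrix protein thrombospondin 1, ranged from 6.23 to 6.98 in control and from 6.68 to 7.35 in carnitine, a difference of 0.48 (SE 0.16). Neither passed in limma (adjusted p = 0.71 for both). Ei24, an endoplasmic reticulum protein gene, came next by p, with a difference of 0.22 and an unadjusted p of 0.0534.

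**Figure D2:**
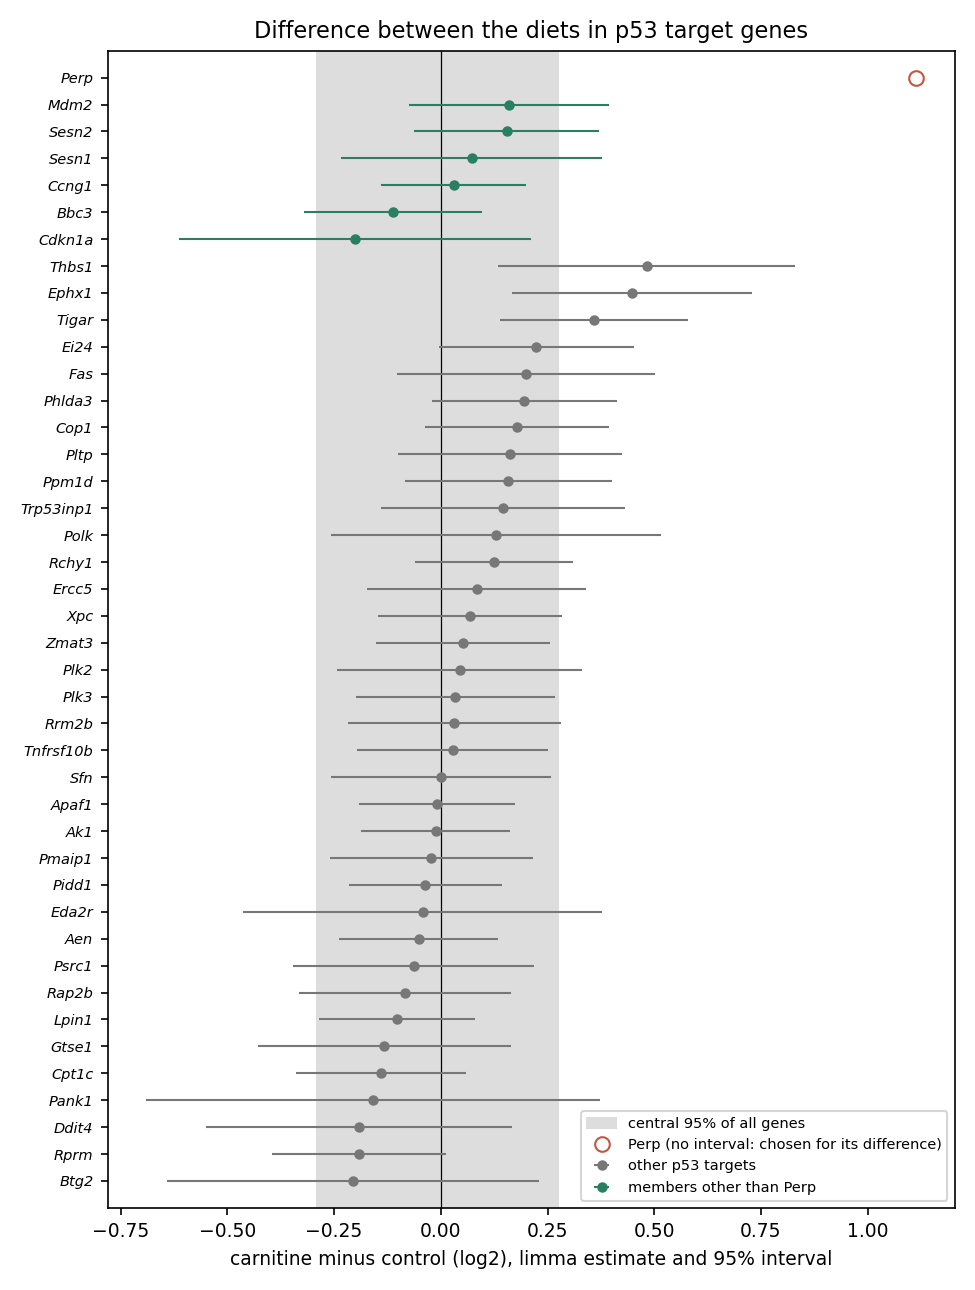
Carnitine minus control in log2 (horizontal axis) for 6 members and 35 other p53 targets, with limma estimates and 95% intervals, and for Perp without an interval. The grey band is the central 95% of all genes, from -0.29 to 0.27, and Perp at 1.11 stands alone to the right while Thbs1, Ephx1 and Tigar are the only other points above the band.

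The apoptosis genes of that list did not pass the test. Pmaip1 (NOXA) differed by -0.02, Apaf1, the apoptosome scaffold, by -0.01, Tnfrsf10b, a death receptor gene, by 0.03, and Fas, another death receptor gene, by 0.20 (SE 0.14). The differences were 0.20 in Phlda3, an inhibitor of AKT, 0.05 in Zmat3, an RNA-binding protein gene, -0.04 in Eda2r, a receptor gene of the TNF family, and -0.21 in Btg2, an antiproliferative gene. The DNA repair genes Xpc and Polk differed by 0.07 and 0.13, and Rrm2b, a ribonucleotide reductase subunit gene, by 0.03.

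Of 20 genes that act on p53, relatives included, 20 were measured and 13 had a positive difference, or 65% against 47.5% of all genes. Among all genes at or above the median level 67.5% were positive, and only 3 of the 20 lay below that level. In limma 0 passed the adjusted threshold, and Hdac1, a histone deacetylase gene, was the 1 gene with an unadjusted p below 0.05 (5% of the list against 6.97% of all genes). Hdac1 ranged from 7.31 to 7.79 in control and from 7.68 to 8.09 in carnitine, with 1 control above 2 of the carnitine mice, a difference of 0.35 (SE 0.11, limma adjusted p = 0.71). Trp63 and Trp73, the p53 relatives, differed by 0.10 and -0.09, the p53 inhibitor Mdm4 by 0.06, the damage kinases Atm and Atr by 0.04 and 0.02, and Cdkn2a, whose product ARF holds Mdm2 in check, by -0.08. The number of positive differences in the list moved to 18 after median centring (62% of all genes) and to 9 with array weights (50.8% of all genes).

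Perp is also a desmosome component with relatives among small tetraspan proteins, and these genes were examined as a group of 14. Their differences split evenly, 7 positive and 7 negative, with a median of 0.00. In limma 0 passed the adjusted threshold and 1 had an unadjusted p below 0.05 (7.14% of the list against 6.97% of all genes), Emp2, a tetraspan membrane protein gene, which ranged from 6.38 to 7.03 in control and from 6.91 to 7.20 in carnitine (difference 0.27, SE 0.12, limma adjusted p = 0.71). The tetraspan genes Emp1, Emp3, Pmp22 and Tmem47 differed by 0.34, 0.19, 0.37 and 0.12, and Lim2, a lens gene of that family, by -0.16. Carnitine replicate 5 had a Pmp22 value of 9.25, and without that array the difference in Pmp22 was 0.16. The desmosome genes Dsp (desmoplakin), Dsg2 and Dsc2 had mean levels of 5.07, 5.30 and 4.35, below the median gene, and differed by -0.20, -0.16 and -0.06. The plakophilin genes Pkp1, Pkp2, Pkp3 and Pkp4 differed by -0.01, 0.12, -0.03 and -0.12. Of these, Pkp2 and Pkp4 lay above the median gene, with mean levels of 7.01 and 7.32. Jup (plakoglobin), shared with other junctions, differed by 0.02.

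Skin and epithelial markers were checked because Perp is abundant in epithelia. Of 8 listed markers 7 were measured, 5 of them below the median gene level, with means from 5.24 to 6.35. Their list mean ran from 5.72 to 6.10 in control and from 5.72 to 5.84 in carnitine, and 2 of the 7 had a positive difference. In limma 0 passed the adjusted threshold and 2 had an unadjusted p below 0.05 (28.6% of the list against 6.97% of all genes), with opposite signs: Krt14 differed by 0.30 and Krt1 by -0.28 (adjusted p = 0.71 for both). The epithelial markers Epcam and Cdh1 differed by -0.09 and -0.14. The highest list mean belonged to a control, replicate 5.

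Whether mice high in Perp within a diet were also high in the other targets was examined on deviations from the diet means, which removes the group difference that chose Perp. Of the 6 genes 4 had a positive correlation with Perp over the 10 mice, or 66.7% against 55.1% of all genes. Mdm2 had the highest, with Pearson r of 0.57 and Spearman rho of 0.54 (exact permutation p within diets 0.140 and 0.167), and 7.11% of all genes had an r as high. Without the mice farthest from the median Perp deviation, control replicate 3 and carnitine replicate 2, r was 0.42. Bbc3 had r of 0.42 and rho of 0.37 (exact permutation p = 0.270 and 0.321), and Cdkn1a 0.31 and 0.20 (exact permutation p = 0.473 and 0.612). Without those mice r was 0.45 in Bbc3 and 0.20 in Cdkn1a. Ccng1 had r of 0.01 and rho of -0.05 (exact permutation p = 0.968 and 0.896), and r became 0.52 without those mice, so its value rests on them. The sestrin genes ran the other way, with r of -0.31 and rho of -0.33 in Sesn2 (exact permutation p = 0.425 and 0.332) and -0.45 and -0.50 in Sesn1 (exact permutation p = 0.377 and 0.182). Without those mice r was -0.08 in Sesn2 and -0.84 in Sesn1, where control replicate 5, low in Sesn1, was kept. Of the 35 other p53 targets 17 had a positive r, or 48.6% against 55.1% of all genes, and the mean of the list had r of -0.49 over the 10 mice, a description. Fas had the strongest of these, with r of -0.84 and rho of -0.88 (exact permutation p for r = 0.0157, and r of -0.88 without those mice). It was chosen after its value was seen. Over 22179 genes 0 correlations with Perp passed an adjusted p of 0.05 in the exact permutation test, and 988 had an unadjusted p below 0.05.

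**Figure D3:**
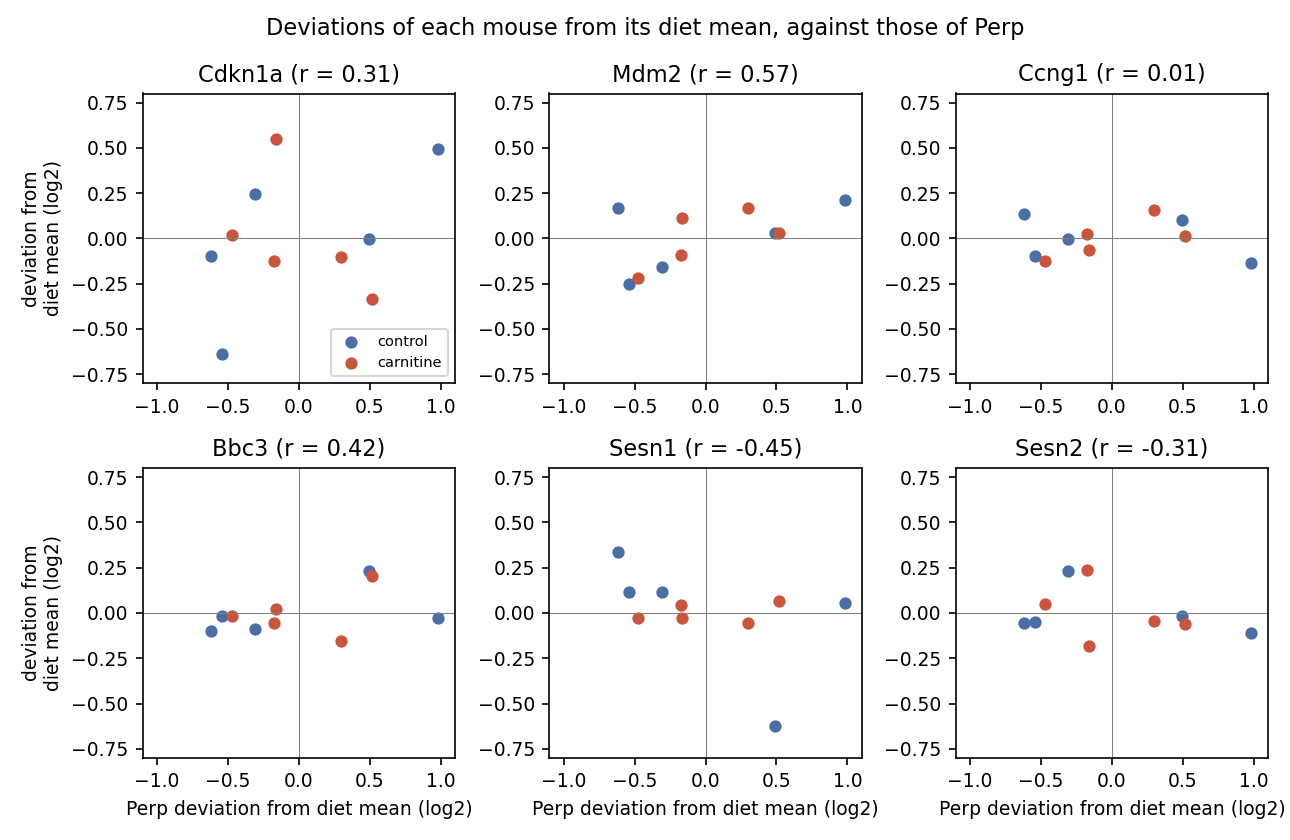
Deviation of each mouse from its diet mean in log2 for 6 p53 targets (vertical axes) against that of Perp (horizontal axes), with control and carnitine mice in separate colours. In Mdm2 r with Perp is 0.57 (exact permutation p within diets 0.140) and in Ccng1 it is 0.01 (exact permutation p = 0.968). Without control replicate 3 and carnitine replicate 2 r is 0.42 in Mdm2 and 0.52 in Ccng1. The low Sesn1 point is control replicate 5.

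**Figure D4:**
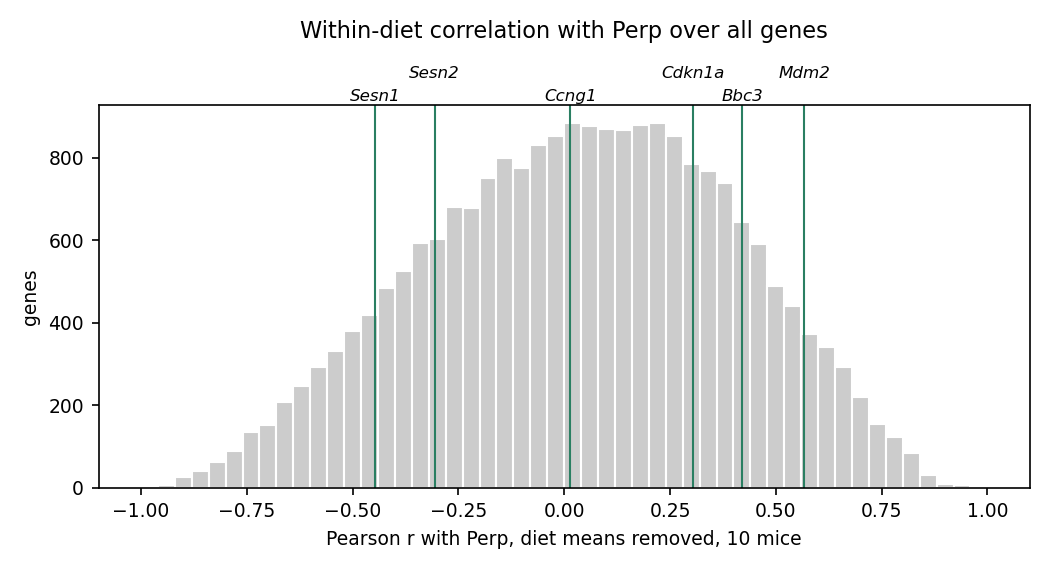
Histogram over 22179 genes of the Pearson correlation with Perp across 10 mice after removal of the diet means, with lines for the 6 other members. All 6 lines, from -0.45 to 0.57, lie inside the central 95% of genes, which ran from -0.67 to 0.69.

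The genes most like Perp by this correlation, among 10326 named genes at or above the median level, were Htra4 (r = 0.93), Fam151b (0.91), Zfp445 (0.89), Ywhae (0.87), Htra1 (0.86) and Mab21l1 (0.86), over 10 mice. The most opposed were Maged1 (-0.97), Cyyr1 (-0.94) and Qk (-0.94). Neither set holds a gene of the p53 lists, and these values describe the top and bottom of a ranking with no test. Between the diets Htra4 differed by -0.29 (95% interval -1.16 to 0.58) and Maged1 by -0.07 (95% interval -0.33 to 0.20).

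Slow-fibre markers, which identify oxidative postural fibres, had lower averages in carnitine muscle, opposite in sign to Perp. All 6 of the list (Myh7, Tnnc1, Tnni1, Tnnt1, Myl2 and Myl3) were lower in carnitine, with a median difference of -1.05. In limma 0 genes passed the adjusted threshold and 4 had an unadjusted p below 0.05 (66.7% of the list against 3.83% of all genes lower in carnitine). The list was chosen with earlier results of these data known, and Myh7, at -1.64, had the lowest difference of all genes. The share is therefore a description and no test of the list. Their mean ranged from 8.70 to 9.76 in control and from 6.38 to 9.56 in carnitine. The carnitine mice with the highest Perp, replicates 2 and 5 at 8.50 and 8.28, had the lowest slow-fibre means, 7.07 and 6.38, and the carnitine mouse with the lowest Perp, replicate 4 at 7.51, had the highest, 9.56. Among controls no such order was seen, since replicate 2 with the lowest Perp (6.25) also had the lowest slow-fibre mean (8.70). After removal of the diet means the correlation of Perp with the slow-fibre mean over 10 mice was -0.46, a description, beside -0.49 for the mean of the 35 p53 targets and -0.51 for that of 6 endothelial markers. The part of fibre composition in the Perp difference was not tested, and in whole muscle fewer cells of a type and less RNA per cell cannot be told apart.

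**Figure D5:**
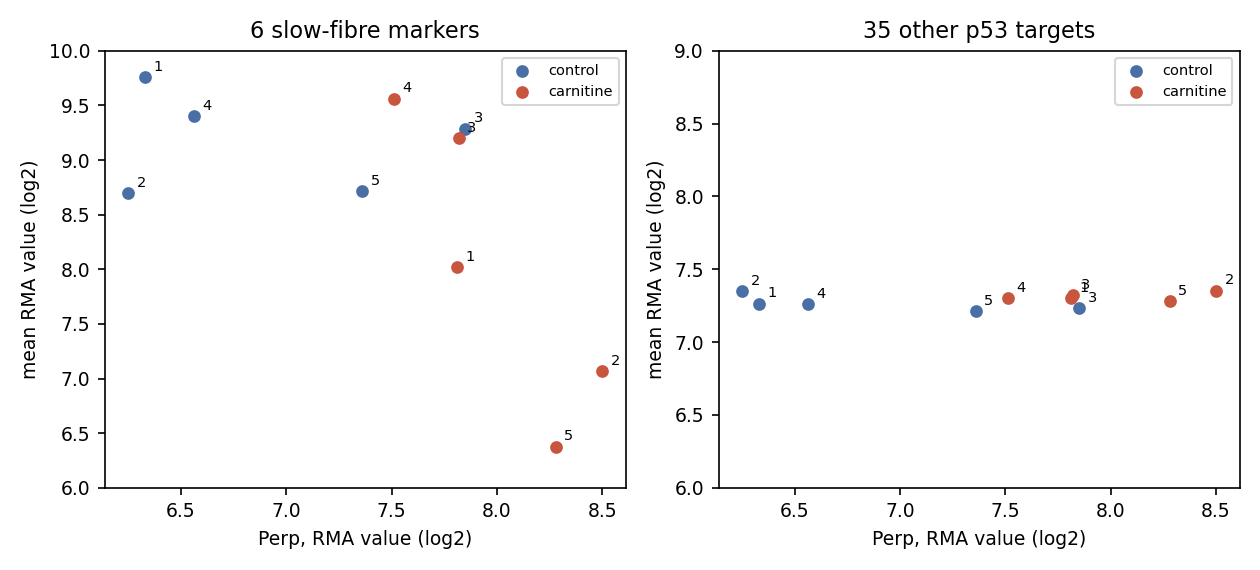
Mean RMA log2 value of 6 slow-fibre markers (left) and of 35 other p53 targets (right) against Perp in each mouse, with numbers for replicates. Carnitine replicates 2 and 5 combine high Perp with low slow-fibre means of 7.07 and 6.38. The p53 target means lie between 7.21 and 7.35 in all 10 mice, with control replicates 1, 3, 4 and 5 below every carnitine mouse. After removal of the diet means r with Perp is -0.46 on the left and -0.49 on the right.

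Genes that rise in denervated muscle were listed too, since Cdkn1a and Gadd45a are known to rise there. Of the 8 measured, 5 had a positive difference, 0 passed in limma, and Chrng, the fetal acetylcholine receptor subunit gene, had the 1 unadjusted p below 0.05 (12.5% of the list against 6.97% of all genes), with a difference of -0.42 (SE 0.17, limma adjusted p = 0.71). Myog, the myogenic factor, differed by 0.09, Runx1 by 0.13 and Musk, the receptor kinase of the neuromuscular junction, by 0.09. In the lists of fibroblast, endothelial, macrophage, adipocyte and Schwann cell markers 0 genes passed the adjusted threshold in limma. Of 6 macrophage markers 1 had an unadjusted p below 0.05 (Cd163, -0.24), 16.7% against 6.97% of all genes. Cd68, Adgre1 and C1qa differed by -0.17, -0.19 and -0.10, and Mrc1 and Csf1r by 0.20 and 0.08. The median of the macrophage list was -0.135. Of 5 adipocyte markers 1 had an unadjusted p below 0.05 (Retn, -0.38), 20% against 6.97% of all genes. Adipoq and Plin1 differed by -0.33 and -0.18, and Lep and Fabp4 by 0.02 and 0.00. The median of the adipocyte list was -0.18.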

How the data were processed

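The deposited values are RMA log2 values of 34390 probe sets on 10 arrays, made by the authors with RMA in Affymetrix Expression Console, per the submitters' processing notes (versions: not given in the sources used here). This method equalises the arrays, so a change in total RNA cannot be seen. Probe sets were named from the platform annotation: 23521 had 1 symbol, 1814 several and 9055 no listed gene. For each gene the single-symbol probe set with the highest mean was kept, which left 22180 genes. No genome build is named for the arrays.

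Diets were compared in R 4.3.3 by lmFit and eBayes (trend on) from limma 3.58.1. Tests were two-sided, no dim gene was removed, and p-values were adjusted over all genes by Benjamini and Hochberg's method. Correlations with Perp used deviations from diet means, with exact permutation over 14400 reorderings of mice within diets. The fit was tested on simulated data. The members and lists were chosen with earlier results of these data known. Beside the members, the text names genes with the smallest unadjusted p per list and those most like or unlike Perp. Other genes of the lists were named for their known roles after their values were seen. The number of arrays limits precision.

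The replicate numbers occur in both groups and no label says that they pair mice. Alternatives were the omission of each array, a replicate block, removal of dim genes, eBayes without trend or with robust fitting, weighted arrays, cyclic loess, median centring and averaged probe sets.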

Additional observations from a re-analysis of the deposited data

Results flagged for a closer look

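In 64 genes taken by the naming rule, 9 of 128 groups of 5 mice held a value far from the other 4, where chance gives about 1 in 20 groups. Among the p53 targets, Bbc3 was 6.20 in control replicate 5 against 5.87 to 5.95 in the other controls, Sesn2 was 6.23 in control replicate 4 against 5.89 to 5.98, and Tigar was 8.47 in control replicate 4 against 8.87 to 8.92. Among the relatives of Perp, Pmp22 was 9.25 in carnitine replicate 5 against 8.11 to 8.26. In other lists, control replicate 5 was high in Lor (6.45) and Sox10 (6.57), carnitine replicate 5 was low in Cdh5 (9.53), carnitine replicate 1 was low in Chrna1 (7.10), and carnitine replicate 2 was high in Myh4 (13.71). Control replicate 5 thus held 3 of the 9 values. It was the array with the narrowest spread of values, and its part in these values was not tested.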

How the results depend on the processing

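Perp was chosen for its difference, which ran from 0.96 to 1.36 when arrays were left out. No other member passed the adjusted threshold under any alternative (limma adjusted p from 0.496 to 0.993). The count with an unadjusted p below 0.05 went from 0 to 1 at most when arrays were left out. The 1 came without control replicate 1, where 8.15% of all genes had such a p. The median of the 6 turned to -0.016 after cyclic loess. Ccng1 turned to -0.047 after cyclic loess, and ran from -0.0085 to 0.0635 when arrays were left out. Sesn1 turned to -0.030 with array weights, and ran from -0.084 to 0.156 when arrays were left out. The cause was not tested. The count of other p53 targets with an unadjusted p below 0.05 ran from 3 to 6 when arrays were left out. With a replicate block, the count of members with a positive correlation with Perp went from 4 to 2. The share of all genes with a positive correlation was not counted in that fit, so this change has no background beside it. In the blocked fit 0 of the 6 had an unadjusted p below 0.05, against 8.12% of all genes. Same-numbered mice had correlations of deviations from -0.132 to 0.236, and 2 of 10 mice matched best with their own number. These values cannot settle whether the replicate numbers pair the mice, since a weak pairing could leave correlations this low. Bbc3 and Sesn2 lie below the median gene, where small changes can be compressed, which was not tested.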
